A study of Mus musculus with 6 samples.

Results

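The genes described here are 9 components of RNA sensing and interferon signalling, namely Ifih1, Mavs, Irf3, Irf7, Irf9, Stat2, Isg15, Adar and Eif2ak2, chosen by symbol and all found among the 55416 genes of the count table. They were measured by RNA sequencing in MB21, a mouse medulloblastoma line that carries a mutation in ptch, the receptor that restrains hedgehog signalling. All 6 libraries come from non-adherent MB21 cells kept in DMEM/F12 with B27. The 3 control libraries received the vehicle DMSO for 1 day, and the other 3 received DS38 (DS-1-38), a derivative of benzarone, at 10 uM for 1 day. The series' design text gives 5 days, whereas the sample titles and treatment protocol give 1 day, which is used throughout. MB21 is a single line, and nothing in the labels ties a replicate to its own culture; p-values thus reflect the spread between these libraries, which may be technical.

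Cells detect viral or self double-stranded RNA in the cytoplasm with helicases such as MDA5, the product of Ifih1, which signals through the mitochondrial adaptor MAVS to the transcription factors IRF3 and IRF7. These induce type I interferon, which acts through its receptor on ISGF3, a complex that contains STAT2 and IRF9 and binds the interferon-stimulated response element (ISRE) of interferon-stimulated genes. ISG15, a ubiquitin-like modifier, is among the classical products of that response. ADAR edits adenosine to inosine in double-stranded RNA, and EIF2AK2 (PKR) is a kinase that double-stranded RNA activates and that phosphorylates the translation factor eIF2alpha. Adar, Eif2ak2, Ifih1, Irf7, Irf9 and Stat2 are themselves known to be inducible by interferon.

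Promoter sequences are shown for the genes among the 9 that hold an ISRE core, since the ISRE is the element that ISGF3 binds. The windows are those of RefSeq on GRCm38.p6, which reach from upstream of each annotated start to just inside the transcript; all 9 genes matched, with 12 windows in all. The core searched was GAAA, any 2 bases, then GAAA, on both strands. Capitals mark the matched bases, and each sequence reads 5′ to 3′ along the gene's own strand.
Isg15: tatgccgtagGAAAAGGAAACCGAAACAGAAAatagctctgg
Ifih1: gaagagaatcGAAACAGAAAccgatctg
Eif2ak2: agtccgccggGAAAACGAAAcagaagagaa
Stat2: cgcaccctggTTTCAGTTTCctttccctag

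The Isg15 stretch, chr4:156200865-156200906 on the minus strand, holds 3 matches that overlap one another, from 78 to 57 bases upstream of the start. The Ifih1 match lies in chr2:62646206-62646233 (minus strand) and begins at base 33 after the start, and that of Eif2ak2 lies in chr17:78882535-78882564 (minus strand) and begins at base 19. In Stat2, at chr10:128270266-128270295 (plus strand), the match is on the opposite strand and its first printed capital is 222 bases upstream. In all, 4 of the 9 genes held the core, against 3.99% of the 27025 genes with a window of this length in the RefSeq table. A second motif, TTCNNNGAA (the core of the STAT-bound GAS element, both strands), was in the windows of 2 of the 9, Adar and Eif2ak2, against 9.55% of genes. Such matches describe letters in a window and are not shown binding sites.

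In the vehicle-treated cells the 9 genes spanned a wide range of levels. Per length (TPM, computed from the counts and the deposited gene lengths), Isg15 was the most abundant at 66.3 ± 3.36 (SD, n = 3) in DMSO. Eif2ak2 followed at 39.9 ± 1.15, Adar at 29.2 ± 0.756, Mavs at 26.3 ± 0.627 and Irf3 at 25.2 ± 1.57. Lower down came Stat2 at 15.2 ± 0.731, Ifih1 at 9.81 ± 0.311 and Irf9 at 6.70 ± 0.746. Irf7, the interferon-inducible partner of Irf3, was the lowest, at 0.653 ± 0.187 TPM. The ranges of neighbours in this order overlapped for Mavs and Irf3 alone, and the order of the 9 means was the same in DS38.

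After DS38, Ifih1 fell and Mavs and Stat2 rose, all by small amounts, and the other 6 genes did not pass the test. The test was edgeR's quasi-likelihood test, with Benjamini-Hochberg adjustment over the 17679 genes tested and a threshold of 0.05. All 9 genes passed the filter on low counts. The 3 calls are 33.3% of the 9 genes, and over all tested genes 24.5% were called, 12.9% higher and 11.7% lower. The median log2 fold change of the 9 was 0.05, against 0.004 over all tested genes. The groups did not overlap for 5 of the 9 genes, against 38.6% of all genes tested. Library size alone, in place of TMM scaling, moved the higher share of all calls from 52.4% to 68.1%.

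**Figure D1:**
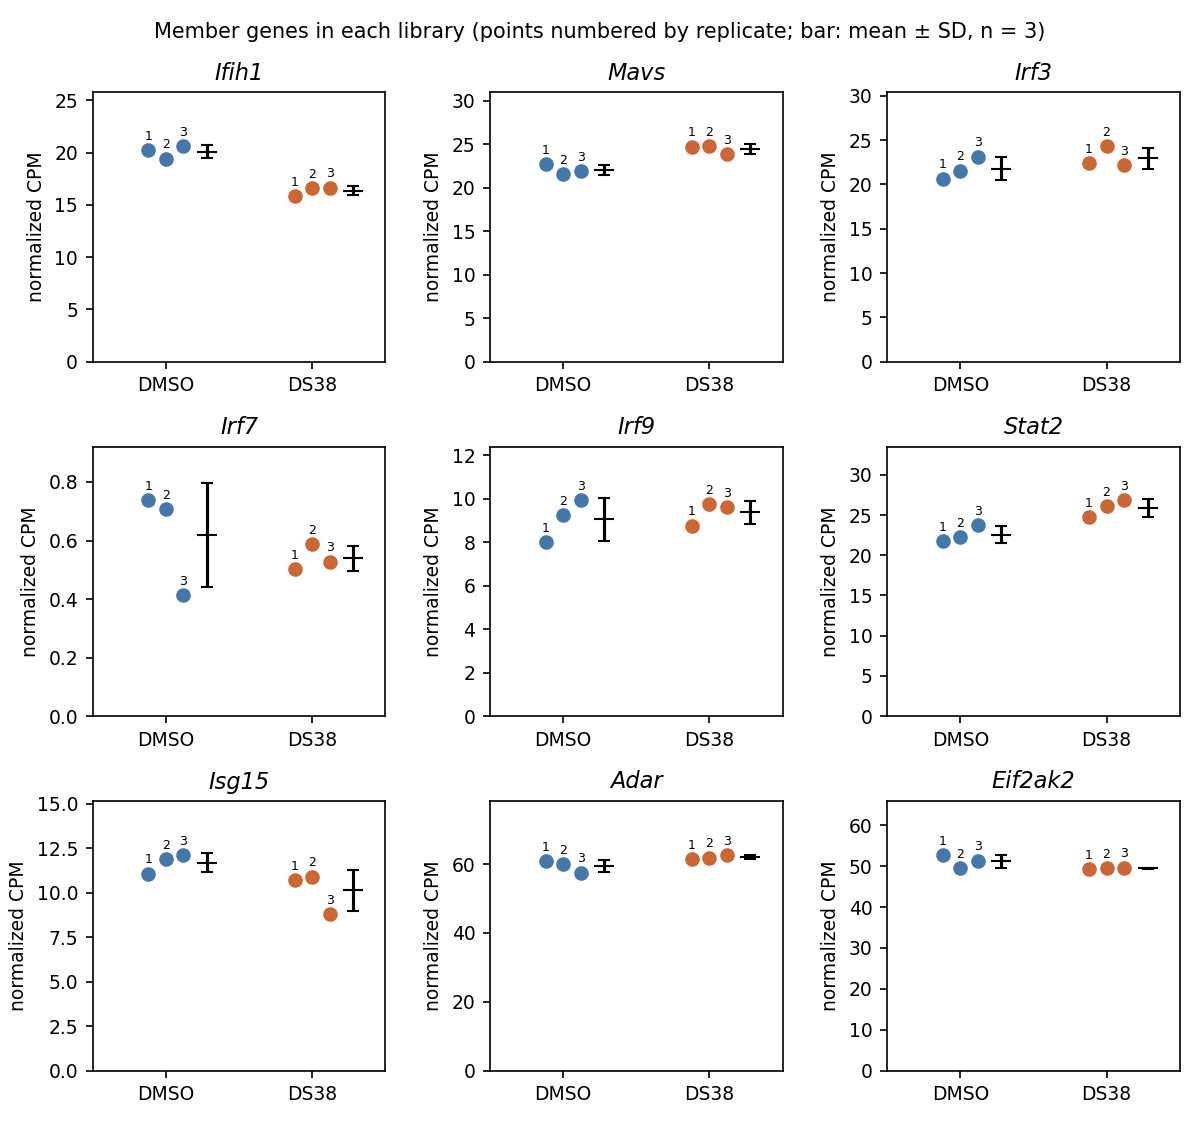
TMM-normalized CPM (vertical axis from 0) of each of the 9 genes in the 3 DMSO and 3 DS38 libraries, with points numbered by replicate and bars giving mean ± SD. Ifih1 is lower in every DS38 library than in any DMSO library, Mavs and Stat2 are higher, and Irf7 stays under 0.737 CPM.

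Ifih1, the sensor, showed the largest called change. Its normalized level, with replicates 1 to 3 in turn here and below, was 20.2, 19.4 and 20.6 CPM in DMSO and 15.8, 16.6 and 16.6 CPM in DS38. Every DS38 library was below every DMSO library, and the gap exceeded the spread within either group. The log2 fold change was -0.30 ± 0.053 (SE; edgeR adjusted p = 2.537e-04), a fall in the fitted level by 18.5%, and the call held under all 16 alternative settings (log2 fold change -0.32 to -0.26). The values rest on 798 to 988 reads per DMSO library and 1018 to 1417 per DS38 library.

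Mavs, the adaptor that receives the MDA5 signal, was at 22.7, 21.6 and 21.9 CPM in DMSO and at 24.7, 24.8 and 23.8 CPM in DS38. The groups were separate, DMSO replicate 1 being closest to the DS38 range. The fitted level of Mavs rose by 10.7% (log2 fold change 0.15 ± 0.047, SE; edgeR adjusted p = 0.0257). That call was lost with DESeq2 (adjusted p = 0.0571), after thinning to equal depth (edgeR adjusted p = 0.0797) and with a gene length correction (log2 fold change 0.10, edgeR adjusted p = 0.117). It was also lost without DMSO replicate 2 (0.13, edgeR adjusted p = 0.103), DMSO replicate 3 (0.14, 0.0505), DS38 replicate 1 (0.14, 0.0857) or DS38 replicate 2 (0.14, 0.0889).

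The transcription factors that act below MAVS showed no called change. Irf3 was at 20.6, 21.5 and 23.1 CPM in DMSO and at 22.4, 24.3 and 22.1 in DS38, so the groups overlapped. Its log2 fold change was 0.08, with a 95% interval of -0.04 to 0.19 (edgeR adjusted p = 0.327). Irf7 had 207 reads in all 6 libraries together. It was at 0.737, 0.707 and 0.414 CPM in DMSO and at 0.501, 0.587 and 0.528 in DS38, with the lowest value in DMSO replicate 3 (16 reads). The interval for Irf7, -0.80 to 0.35, was the widest of the 9 (log2 fold change -0.23, edgeR adjusted p = 0.602). Its value was -0.43 without DMSO replicate 3, -0.09 without DMSO replicate 1 and -0.13 without DMSO replicate 2, and at this depth a change of moderate size in either direction was not detectable.

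Of the ISGF3 subunits among the 9, Stat2 rose and Irf9 did not pass. Stat2 was at 21.8, 22.2 and 23.7 CPM in DMSO and at 24.7, 26.1 and 26.8 in DS38. All 3 DS38 libraries lay above all 3 DMSO libraries. The log2 fold change of Stat2 was 0.20 ± 0.050 (SE; edgeR adjusted p = 0.00495), or 14.9% higher, and the call held under all 16 alternatives (0.17 to 0.23). Irf9, the DNA-binding partner, was at 8.004, 9.23 and 9.93 CPM in DMSO and at 8.76, 9.75 and 9.61 in DS38. These ranges overlapped; the log2 fold change of 0.05 (95% interval -0.11 to 0.22; edgeR adjusted p = 0.672) turned to -0.03 without DMSO replicate 1.

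Isg15 was lower in DS38 without passing the threshold. It was at 11.1, 11.9 and 12.1 CPM in DMSO and at 10.7, 10.9 and 8.79 in DS38. The groups were separate but close, and DS38 replicate 3 lay well below the other libraries. The log2 fold change was -0.21 ± 0.079 (SE; unadjusted p = 0.0146, edgeR adjusted p = 0.0570). Without DS38 replicate 3 it was -0.11 (edgeR adjusted p = 0.327). It passed with RLE scaling, with no filter on low counts, with robust dispersion, and without DMSO replicate 1 (-0.25, edgeR adjusted p = 0.0481) or DS38 replicate 2 (-0.26, 0.0397).

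The effectors that bind double-stranded RNA were the most deeply counted of the 9, and neither passed the test. Adar was at 60.9, 60.004 and 57.6 CPM in DMSO and at 61.4, 61.9 and 62.7 in DS38, groups that did not overlap but lay close. Its log2 fold change was 0.06 (95% interval -0.01 to 0.13; edgeR adjusted p = 0.231); without DMSO replicate 3 it was 0.03, and with library size alone it was 0.09 and passed (edgeR adjusted p = 0.0446). Gene-level counts do not separate the interferon-inducible long form of ADAR from the constitutive short one. Eif2ak2 was at 52.7, 49.5 and 51.3 CPM in DMSO and at 49.3, 49.4 and 49.6 in DS38. The value of DMSO replicate 2 fell among those of DS38, and the log2 fold change was -0.05 (95% interval -0.12 to 0.02; edgeR adjusted p = 0.341). It was -0.03 without DMSO replicate 1, and -0.08 with the length correction and -0.01 with library size alone, and passed under none of these.

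**Figure D2:**
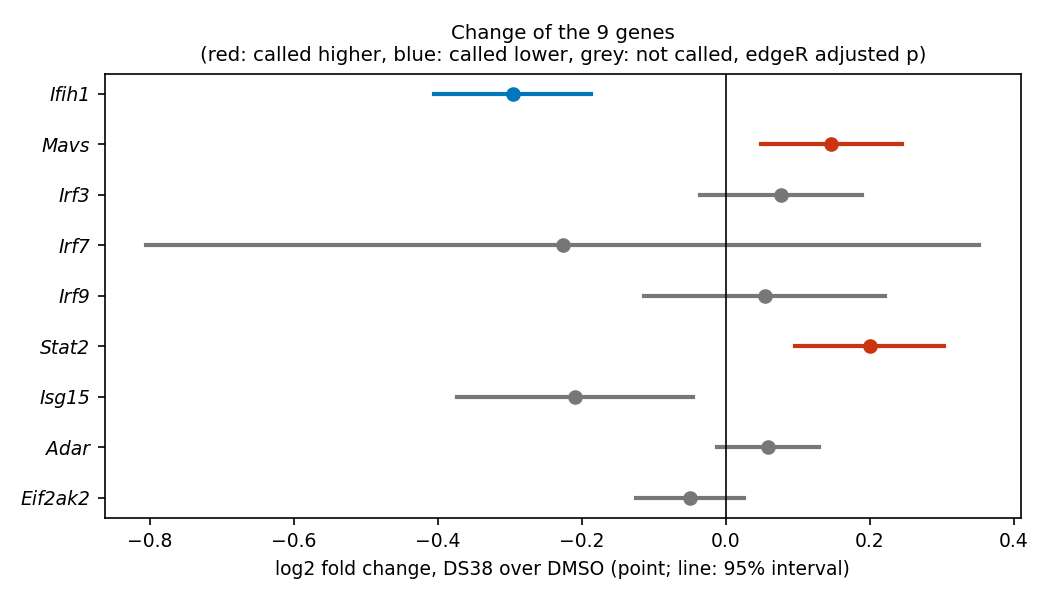
Log2 fold change of each of the 9 genes, DS38 over DMSO (horizontal axis; points, with lines for the 95% interval). The intervals of Ifih1, Mavs, Stat2 and Isg15 leave out 0, and that of Isg15 is grey because its edgeR adjusted p was 0.0570.

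The levels of the 9 genes did not move as a block across libraries. Over the 36 pairs of genes, Pearson's r of log2 CPM over the 6 libraries ran from -0.90 (Ifih1 with Mavs) to 0.78 (Irf3 with Irf9), with a median of -0.10. The r of Ifih1 with Mavs includes the group difference and was 0.07 on deviations from group means, whereas that of Irf3 with Irf9 stayed at 0.79. Among other genes of at least 5 CPM, those most alike in profile to the called members were C1ql3 for Ifih1 (r = 0.9972), Tmem132e for Mavs (0.9978) and Pcdhb4 for Stat2 (0.9976). For the rest they were Dtwd1 for Irf3, Ppp2r3a for Irf7, Vps51 for Irf9, Cep164 for Isg15, Cav2 for Adar and Ythdc1 for Eif2ak2 (r = 0.986 to 0.9992). These r values are the highest found over 6 libraries that share a treatment and a difference in depth, and carry no test.

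The wider pathway was described by 6 lists of 122 different genes, of which 101 were tested, 10 rose and 13 fell (22.8% called, against 24.5% of all genes). Their median log2 fold change was -0.003. The number that rose was 6 with DESeq2 or the length correction, 5 after thinning or without DMSO replicate 2, 4 without DS38 replicate 1 and 6 without DS38 replicate 2. With library size alone 14 rose and 10 fell, and with the length correction 17 fell. Each list is compared with all tested genes by its count and median alone.

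**Figure D3:**
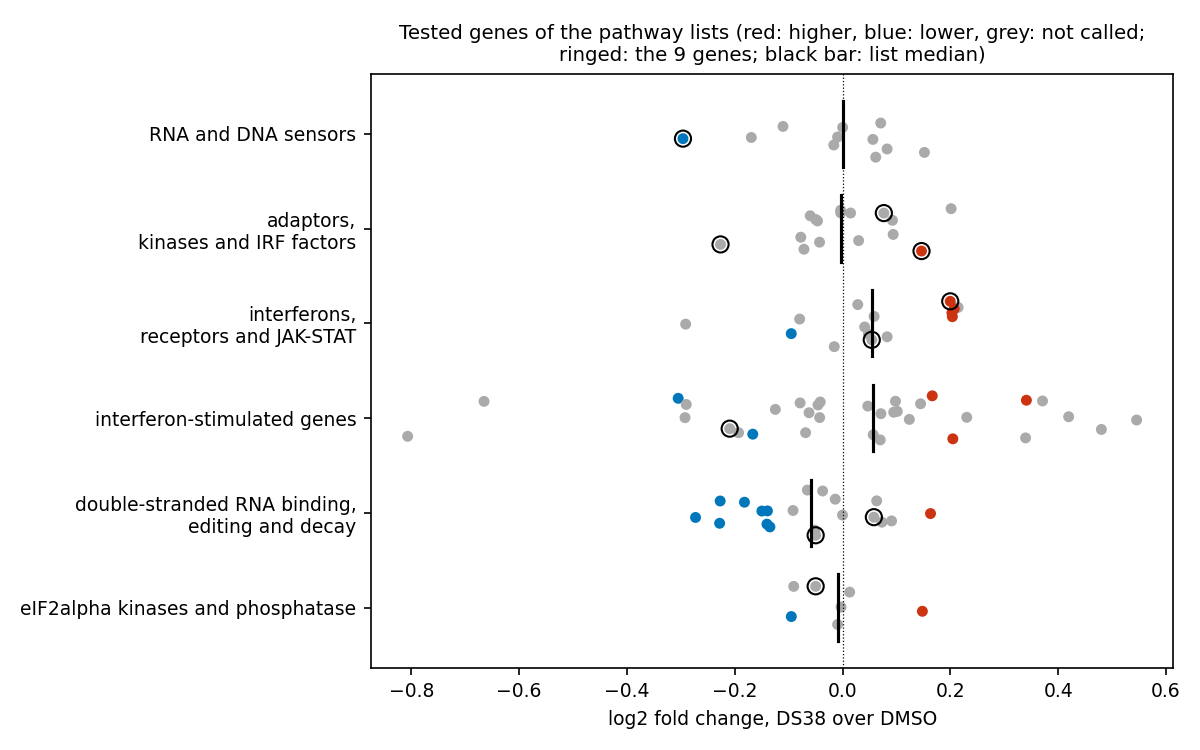
Log2 fold change (horizontal axis) of every tested gene in the 6 pathway lists (rows); red points were called higher, blue points lower, grey points not called, rings mark the 9 genes and black bars the list medians. The list for double-stranded RNA binding, editing and decay holds 8 of the 13 genes that fell.

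Among sensors of foreign nucleic acid, Ifih1 was the only one of 11 tested genes that was called (9.09%, against 24.5% of all tested genes). No sensor was called higher with edgeR, DESeq2 or limma-voom, and none had an unadjusted p under 0.05 in that direction. Rigi (RIG-I), the helicase that works beside MDA5, had 11.1 ± 0.942 CPM with DMSO and 11.7 ± 0.556 with DS38 (SD, n = 3; edgeR adjusted p = 0.428), and the related Dhx58 (LGP2) was at 5.50 ± 0.450 and 5.75 ± 0.775. These helicase genes were singled out after their values were seen, as the relatives of Ifih1. Sting1, the adaptor of DNA sensing and the most abundant of this list per length, was at 94.4 TPM in DMSO and did not pass (log2 fold change -0.01; 0.03 with library size alone or without DMSO replicate 3). The number of sensors that fell was 2 with the length correction and without DMSO replicate 3 or DS38 replicate 3. Of 16 adaptors, kinases and IRF factors, Mavs alone was called (6.25%, against the same 24.5%) and 0 fell (0 at an unadjusted p under 0.05, and 0 with DESeq2 and limma-voom). Rela, the NF-kappaB subunit most abundant among them, had 56.1 ± 2.59 CPM with DMSO and 53.1 ± 0.809 with DS38 (edgeR adjusted p = 0.143), and passed as lower with the length correction (-0.12) and without DMSO replicate 2 (-0.12).

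Of the interferon genes in the list, Ifnk alone had any counts, and interferon genes outside the list were not looked up. Ifnb1, Ifna2, Ifna4, Ifnl2, Ifnl3, Ifng and the lambda receptor gene Ifnlr1 had 0 counts, a result that permits at most 0.00829 CPM over the 6 libraries together, and Ifnk had 10 counts. The type I receptor genes Ifnar1 and Ifnar2 were present at 64.7 ± 2.08 and 11.7 ± 0.707 CPM in DMSO (SD, n = 3) and were not called. Of 15 tested genes for interferons, receptors and JAK-STAT factors 4 rose, among them Stat2, Ifngr2 and Tyk2, and 1, Jak1, fell. The share called was 33.3%, against 24.5% of all tested genes (12.9% higher, 11.7% lower), and the median was 0.05.

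Ifngr2, a chain of the interferon-gamma receptor, went from 18.8 ± 0.345 to 21.6 ± 0.402 CPM, and its call held under all 16 alternatives. Tyk2, the kinase bound to the type I receptor, went from 10.9 ± 0.385 to 12.5 ± 0.346 CPM, a call lost after thinning and without DMSO replicate 1 (log2 fold change 0.17, edgeR adjusted p = 0.0885) or DS38 replicate 2 (0.18, 0.0836). Jak1, the other receptor-bound kinase, went from 176.9 ± 3.38 to 165.6 ± 1.02 CPM. Its fall did not pass with library size alone, or without any library other than DMSO replicate 3 (log2 fold change -0.10 to -0.08, edgeR adjusted p = 0.0541 to 0.0801). The number of this list that rose was 2 without DS38 replicate 2, and the number that fell was 2 without DMSO replicate 3.

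Interferon-stimulated genes did not shift together. Of 33 tested 3 rose and 2 fell, 15.2% of the list against 24.5% of all tested genes, with a median of 0.06. Several of the 33 had few reads, among them Mx1, named after its value was seen. It was at 0.235 CPM in DMSO, with a standard error of 0.41 on the log2 scale. In such genes a change of moderate size was not detectable, which limits the share called. Ifi27, which encodes a mitochondrial protein, rose from 19.6 ± 0.900 to 22.5 ± 1.01 CPM (SD, n = 3); without DS38 replicate 1 it did not pass (edgeR adjusted p = 0.0519). Ube2l6, the conjugating enzyme for ISG15, rose from 3.37 ± 0.0819 to 4.26 ± 0.242 CPM, and Ifit2, whose product binds viral RNA, from 14.3 ± 0.401 to 16.0 ± 0.525. The call of Ube2l6 was lost without DMSO replicate 2 (edgeR adjusted p = 0.0570), DS38 replicate 1 (0.0585) or DS38 replicate 3 (0.0824), and after thinning (log2 fold change 0.19 in place of 0.34). That of Ifit2 was lost under 8 of 16 alternatives, among them without DMSO replicate 1 (0.126), DMSO replicate 2 (0.0574), DS38 replicate 1 (0.104) or DS38 replicate 3 (0.117). The number that rose was accordingly 1 without DMSO replicate 2 or DS38 replicate 3 and 0 without DS38 replicate 1.

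The falls in this list were firmer. Oasl1, an OAS-like protein known to restrain Irf7 translation, was at 38.5, 34.9 and 38.7 CPM in DMSO and at 31.0, 30.9 and 28.8 in DS38 (log2 fold change -0.30 ± 0.047, SE; edgeR adjusted p = 5.647e-05). Ifit1, whose product binds RNA that lacks cap methylation, was at 33.5, 32.6 and 33.1 CPM in DMSO and at 30.5, 28.5 and 29.3 in DS38 (-0.17 ± 0.043; edgeR adjusted p = 0.00610). The groups were separate for both, and both calls held under all 16 alternatives. Oasl1 and Ifit1, at 57.1 and 49.6 TPM in DMSO, were of the order of Isg15 per length. Levels of the other classical members, named after their values were seen, varied widely: Oasl2 and Rsad2 were at 41.8 ± 2.94 and 31.5 ± 1.31 CPM in DMSO, whereas Mx1, Usp18, Oas1a and Oas2 had 92, 16, 1 and 57 reads over all libraries. Ifit, Oas and Gbp genes belong to families of similar copies, so how their reads were assigned is uncertain. Of the 27 tested genes of this list with a promoter window, 12 held the ISRE core, against 3.55% of all tested genes with a window. The median log2 fold change was 0.0046 for these 12 and 0.07 for the 15 without the core.

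Genes for double-stranded RNA binding, editing and decay, the functional neighbours of Adar and Eif2ak2, included 8 that fell and 1 that rose of 20 tested. The list had 45.0% called, against 24.5% of all tested genes (11.7% lower), and a median of -0.06. Dhx9, a helicase that unwinds double-stranded RNA, was at 1334, 1324 and 1271 CPM in DMSO and at 1078, 1088 and 1086 in DS38 (log2 fold change -0.27 ± 0.028, SE; edgeR adjusted p = 3.569e-07). Every DS38 library was lower by more than the spread of either group. Rnaseh2b, a subunit of the nuclease that removes RNA from DNA hybrids, fell from 73.1 ± 3.10 to 64.3 ± 0.959 CPM (SD, n = 3). Pnpt1, a mitochondrial RNA-degrading exonuclease, fell from 106.2 ± 0.996 to 95.7 ± 1.98. Xrn1, the cytoplasmic exonuclease, fell from 124.1 ± 13.5 to 106.1 ± 1.90, with DMSO replicate 3 at 110.9 CPM close to the DS38 range, and did not pass with robust dispersion (edgeR adjusted p = 0.0942); its log2 fold change of -0.23 was -0.10 with the length correction and -0.14 without DMSO replicate 1, and passed in both. Ddx3x, the most abundant per length at 793.7 TPM in DMSO, fell by 0.13 ± 0.029 on the log2 scale (SE). Tarbp2, Dicer1 and Rnaseh2c completed the 8 (edgeR adjusted p = 0.0032, 0.0039 and 0.033), and their calls were not followed singly under the alternatives. Skic2, a helicase of the cytoplasmic RNA exosome, rose from 46.6 ± 2.24 to 52.1 ± 1.43 CPM. The number that rose was 4 with library size alone and 2 without DMSO replicate 3.

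Eif2ak2 is 1 of 4 kinases that phosphorylate eIF2alpha, and none of the 4 was called. Of the 7 tested genes of the eIF2alpha list 28.6% were called, against 24.5% of all tested genes. Eif2ak1 (HRI), Eif2ak3 (PERK) and Eif2ak4 (GCN2) had log2 fold changes of -0.003, -0.009 and -0.09 (edgeR adjusted p = 0.959, 0.900 and 0.213). Their substrate gene Eif2s1 fell from 351.9 ± 7.39 to 329.4 ± 0.919 CPM (SD, n = 3), a call lost with library size alone (-0.06, edgeR adjusted p = 0.107) and without DS38 replicate 1, 2 or 3 (edgeR adjusted p = 0.0583, 0.0629 and 0.0624). Ppp1r15a (GADD34), which directs a phosphatase to eIF2alpha, rose from 17.8 ± 0.274 to 19.8 ± 0.653 CPM, a call that held under 8 of 16 alternatives and without DS38 replicate 3 alone among the single libraries left out (log2 fold change 0.13 to 0.18, edgeR adjusted p = 0.0373 to 0.137). The 3 kinases other than Eif2ak2 are named because none of the list's kinases was called.

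Totals ran from 38840296 to 50014681 counts for DMSO libraries and from 60434089 to 84044428 for DS38 libraries, so depth moved with treatment; after thinning to the smallest total, Ifih1 and Stat2 were still called. All 10 markers of granule-lineage medulloblastoma were tested, and 90% of them were called, against 24.5% of all tested genes. On the log2 scale 2 rose (Atoh1 by 0.33 ± 0.028 and Barhl1 by 0.27 ± 0.030, SE) and 7 fell, the most by Neurod1 (-0.37 ± 0.036) and Hhip (-0.35 ± 0.035). Barhl1, Neurod1 and Hhip were named after their values were seen. The summed level of the 10 markers was 2314 to 2394 CPM in DMSO and 2262 to 2301 in DS38. Atoh1 was the most abundant of them per length, at 614.1 TPM in DMSO. Of 9 leukocyte markers 4 had 0 counts, 1 (Cd68) was tested, and their summed level was 1.55 to 1.73 CPM in DMSO and 1.42 to 1.96 in DS38. Fibroblast and mural markers summed to 1.72 to 2.64 CPM in DMSO and 2.63 to 3.13 in DS38 (Lum 0.716 ± 0.0782 and 1.09 ± 0.237 CPM, not called; 0 of 6 at 0 counts). Col1a1, named after its value was seen, was the only one of the 3 tested markers of that list that was called, rising from 0.373 ± 0.168 to 0.822 ± 0.258 CPM (edgeR adjusted p = 0.0122). Endothelial markers summed to 0.931 to 1.27 and 0.998 to 1.18 CPM (Tek the most abundant per length; 2 of 5, Cldn5 and Kdr, at 0 counts). Astrocyte and oligodendrocyte markers summed to 4.79 to 5.33 and 5.88 to 6.44 CPM, Gfap at 4.33 ± 0.241 and 5.40 ± 0.333 and called higher (edgeR adjusted p = 0.0179), with 1 of 6 (Mag) at 0 counts. The part of these markers in the changes above was not tested. In bulk RNA, fewer cells with a transcript and less of it per cell cannot be told apart.

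In the GENCODE M21 annotation, whose build is older than that of the count table, exons of 5 of the 9 genes overlap those of other genes. Adar shares 1365 exon bases with Chrnb2, Irf3 88 with Bcl2l12 and Irf7 45 with Phrf1, all on the opposite strand, and Irf9 shares 123 with Rnf31 on the same strand. Phrf1 had 57231 reads in all libraries against 207 for Irf7. Eif2ak2 overlaps Gm26637 by 174 bases and n-R5s29 by 47. How strand and shared reads were handled is not given in the sources used here, so reads in these stretches cannot be told apart.

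**Figure D4:**
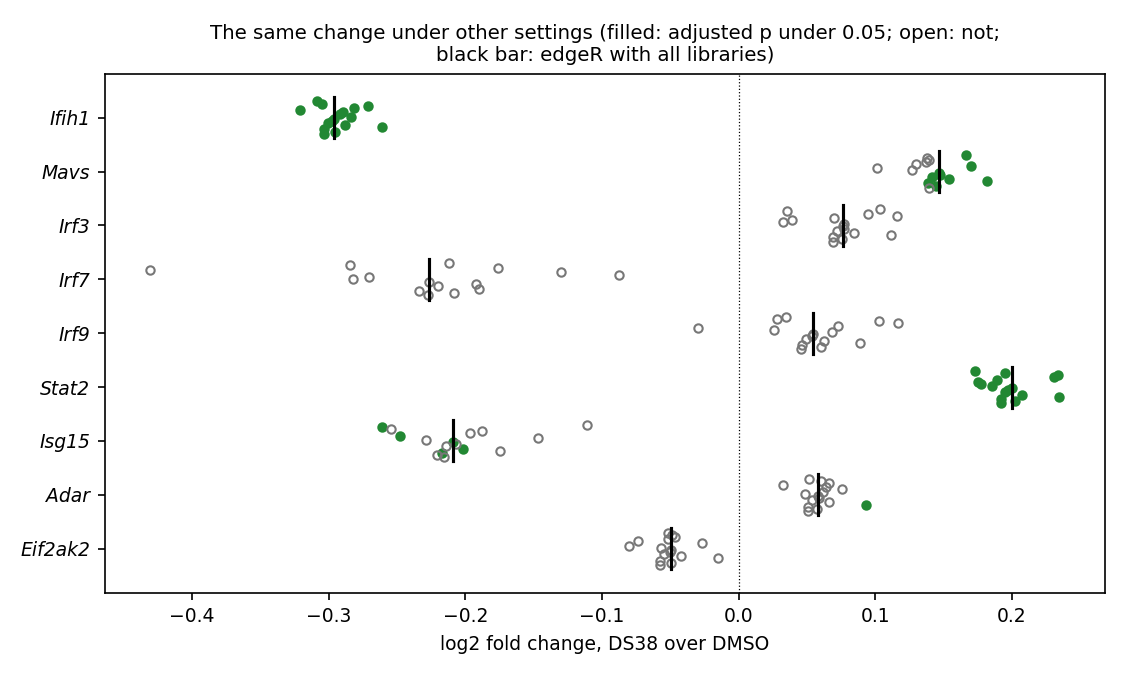
Log2 fold change of each of the 9 genes under the alternative settings (filled green points: adjusted p under 0.05; open points: not) with a black bar for edgeR on all libraries. Ifih1 and Stat2 are filled throughout, Mavs and Isg15 are mixed, Adar has a single filled point (library size alone), and a single Irf9 value lies across 0.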

How the data were processed

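A single deposited table gives raw counts of reads for each gene in 6 libraries, with gene lengths. The submitters' processing notes list edgeR, featureCounts, R 4.1.0, STAR 2.7.9a and Subread 2.0.3, and the builds GRCh38.p13 and GRCm39, in no stated role. Replicate origin and strand setting: not given in the sources used here. Symbols were matched for 52083 of 55416 identifiers. The counts were tested with edgeR 4.0.16 (R 4.3.3): filterByExpr (minimum count 10, minimum total 15), TMM scaling, group as the sole term, Benjamini-Hochberg adjustment. Levels are TMM-normalized CPM. Standard errors are the absolute log2 fold change over the square root of F. Floors take 3 counts and cover counting error only. Alternatives, run with DESeq2 1.42.0 and limma 3.58.1 among others, are given in the closing section. The edgeR test alone was also run on simulated data, which checked the code and was not used to judge the small changes reported here. Figures used Python 3.11.15 and matplotlib 3.10.9. The 9 genes and the lists were chosen with earlier results of these data known. Named were the 9 genes and, per list, up to 4 others of smallest adjusted p in each direction and the most abundant per length; the gene closest in profile to each of the 9; and those stated as chosen later. A gene so chosen is not reported here.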

Additional observations from a re-analysis of the deposited data

How the results depend on the processing

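Over 16 alternatives (15 for Irf7, which the stricter filter removed), Ifih1 (log2 fold change -0.32 to -0.26) and Stat2 (0.17 to 0.23) kept direction and call. Mavs passed in 9 of 16. It did not pass with DESeq2 (0.14), after thinning (0.13) or with the length correction (0.10). With single libraries left out it was 0.13 to 0.17, and passed only without DMSO replicate 1 or DS38 replicate 3. Isg15 passed in 5: with RLE scaling (-0.22), no filter on low counts (-0.20), robust dispersion (-0.21), and without DMSO replicate 1 (-0.25) or DS38 replicate 2 (-0.26). It ran from -0.26 to -0.11 with single libraries left out. Adar passed with library size alone (0.0932). Irf9 ran from -0.0294 (without DMSO replicate 1) to 0.12 with single libraries left out. Of the 9 genes, 1 rose with DESeq2, thinning or the length correction (1 to 2 with single libraries left out), and 2 fell with RLE scaling, no filter or robust dispersion (1 to 2). Why these calls moved was not tested.

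Over the 6 lists together 6 rose with DESeq2 or the length correction, 5 after thinning, and 4 to 8 with single libraries left out. With DESeq2, 0 adaptors and 0 of the eIF2alpha list rose. With limma-voom 0 of the eIF2alpha list rose. After thinning 0 adaptors, 1 interferon-stimulated gene and 2 of the JAK-STAT list rose. With the length correction 0 adaptors and 0 of the eIF2alpha list rose, while 1 adaptor, 2 sensors, 4 interferon-stimulated genes and 2 of the JAK-STAT list fell. With library size alone 4 of the double-stranded RNA list rose, and 0 of the JAK-STAT and 0 of the eIF2alpha list fell; with the stricter filter 2 of the JAK-STAT list fell. With single libraries left out, the numbers that rose were 0 to 1 adaptors, 0 to 3 interferon-stimulated genes, 2 to 3 of the JAK-STAT list, 1 to 2 of the double-stranded RNA list and 0 to 1 of the eIF2alpha list. The numbers that fell were 0 to 1 adaptors, 1 to 2 sensors, 0 to 2 of the JAK-STAT list and 0 to 1 of the eIF2alpha list. Sting1 was 0.0256 with library size alone and -0.0534 to 0.0287 with single libraries left out.

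Same-numbered libraries did not deviate together (r = 0.03, -0.01 and -0.03), and not every library correlated best with its own number. With the replicate number as a block, 4010 genes were called against 4340, 3937 of them shared. Ifih1 was -0.30, Mavs 0.15 and Stat2 0.20 with the block, all called. Calls lost with the block included that of Ifit2 (edgeR adjusted p = 0.0526). In the double-stranded RNA list 7 genes fell with the block, against 8 without it. Dhx9, Rnaseh2b, Pnpt1, Xrn1 and Ddx3x stayed called, so the loss lay among Tarbp2, Dicer1 and Rnaseh2c. The alternatives for genes other than the 9 were added after seeing the data. Irf7 had 16 to 45 reads per library and the widest interval of the 9 genes.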
